A study of Mus musculus with 2 samples.

Results

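The nuclear genes of oxidative phosphorylation (OXPHOS) were examined in PK44 cells of the E10.0 mouse yolk sac. Every row was taken whose symbol began with Ndufa, Ndufb, Ndufc, Ndufs or Ndufv and a digit, with Uqcr, with Cox and a digit from 4 to 8, or with Atp5, together with *Sdha*, *Sdhb*, *Sdhc*, *Sdhd* and *Cycs*. This gave 85 of the 23154 genes in the count tables, of which 79 had a count in at least 1 cell and 6 had none. No measured value entered this symbol rule, but the OXPHOS genes were chosen as a subject with earlier results of these data known. The members held 35 genes of complex I, 4 of complex II, 8 of complex III, 20 of complex IV, 17 of complex V and the single gene of cytochrome c. *Ndufa4* and *Ndufa4l2* were placed with complex IV, because Ndufa4 protein is now known as a part of cytochrome c oxidase despite its name. *Cox7a2l*, *Atp5s* and *Atp5sl* met the symbol rule although they are not regular subunits of the complex with which they were counted.

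The respiratory chain sits in the inner mitochondrial membrane. Complexes I and II take electrons from NADH and succinate, complex III passes them to the mobile carrier cytochrome c, and complex IV hands them to oxygen. Complexes I, III and IV pump protons in doing so, and complex V, the ATP synthase, uses the proton gradient to make ATP. Most subunits are encoded in the nucleus, and a small set is encoded by the mitochondrial genome, whose genes had no row in these tables. In blood formation, hemogenic endothelial cells, flat cells of the vessel wall, turn into round blood progenitors, and the balance of glycolysis and respiration is a classical subject in that field.

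PK44 cells were sorted as CD41-CD43-CD45-CD31+CD201+Kit+CD44+ cells, the gate that the study uses for hemogenic endothelial cells, and no treatment or genotype was compared. There were 43 cells in replicate 1 and 44 in replicate 2, with 0 cell barcodes in common. The labels do not say whether the 2 libraries came from separate litters, so the spread between them may be technical. Transcripts were counted by unique molecular identifiers (UMIs) after modified STRT-seq, a method in which single cells are picked, lysed and barcoded by their oligo dT primer before pooling. Replicate 1 had 8932527 counts in all, with 13218 to 702028 per cell, and replicate 2 had 12706360, with 51620 to 956593 per cell. All 7 endothelial markers examined (*Pecam1*, *Cdh5*, *Kdr*, *Tek*, *Tie1*, *Emcn* and *Cldn5*) had counts in both libraries, *Pecam1* (CD31) in 86 of 87 cells. Of 9 erythroid markers 5 were at 0, among them *Hba-a1* and *Hbb-b1*, of 6 macrophage markers 2 (*C1qa* and *C1qb*) and of 6 visceral endoderm markers 3 (*Apob*, *Amn* and *Cubn*). The others had counts. In replicates 1 and 2, *Hbb-y* was seen in 7 and 6 cells, *Lyz2* in 23 and 11 and *Cd68* in 17 and 1. *Afp*, *Apoa1* and *Ttr* were seen in 10, 13 and 7 cells, all of replicate 2. The gate excludes CD41, CD43 and CD45 protein. RNA of *Itga2b* (CD41) was counted in 23 and 33 cells, of *Spn* (CD43) in 5 and 4 and of *Ptprc* (CD45) in 1 and 2. Cells with at least 100 counts each of *Col1a1*, *Col1a2*, *Col3a1* and *Lum*, which mark mesenchyme, numbered 2 in replicate 1 and 1 in replicate 2.

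The promoters of the members were searched for 2 short motifs, because nuclear respiratory factor 1 (NRF1) and ETS factors such as GABP are known regulators of these genes. RefSeq promoters on GRCm38.p6, 250 bases before to 50 after the start, were found for 67 of the 85 members, with 72 promoters in all. The NRF1 motif, GCGCA followed by any base and GCGC, searched on both strands, was in 18 of them (25%), against 4.60% of 32851 promoters and 10.8% of the promoters of genes with at least 100 counts. The ETS motif CCGGAAG, searched on both strands, was in 16 (22.2%), against 8.86% and 18.9%. At least 1 of them was in 41.7% of the member promoters, 12.6% of all and 27.3% of those with counts. A match describes letters in this window and is not a binding site. As examples, chosen after the matches were seen, the exon-free part of the window is given for 2 genes. In that part *Cox6a1* of complex IV had 2 NRF1 matches, while 1 ETS match of its window lay outside that part. *Uqcr11*, the gene of complex III with the most counts, had 1 ETS match. Both are on the minus strand, at chr5:115348982-115349129 for *Cox6a1* and chr10:80406831-80407071 for *Uqcr11*, written 5′ to 3′ along the gene with the matches in capitals, and the matches do not overlap.
Cox6a1: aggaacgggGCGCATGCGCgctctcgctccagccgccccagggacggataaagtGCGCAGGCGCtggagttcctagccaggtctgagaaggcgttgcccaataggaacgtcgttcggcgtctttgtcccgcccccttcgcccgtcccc
Uqcr11: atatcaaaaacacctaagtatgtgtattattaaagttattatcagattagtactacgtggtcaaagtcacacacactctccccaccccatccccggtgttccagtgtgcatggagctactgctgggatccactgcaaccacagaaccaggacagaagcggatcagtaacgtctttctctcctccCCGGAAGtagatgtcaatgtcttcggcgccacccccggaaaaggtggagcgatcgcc

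Levels are given as CPM, the counts of a gene scaled to an equal total per library with the cells summed. Where a pair of values is given without further words, the first is replicate 1. Each UMI stands for 1 tagged molecule, and CPM were not divided by transcript length. OXPHOS genes held 3.01% of the counts of replicate 1 and 3.57% of those of replicate 2 (3.29 ± 0.39%, SD, n = 2 libraries). Complex V contributed 0.951% and 1.03% of all counts in replicates 1 and 2, and complex I 0.918% and 1.06%. Complex IV held 0.684% and 0.954%, and complex III 0.381% and 0.428%. Complex II, with the fewest genes, held 0.0430% and 0.0619%, and *Cycs* alone 0.0354% and 0.0446%. The order of complexes I and V differed between the libraries, so those complexes were not ranked against each other. Complexes IV and III followed in this order in both libraries. Mean CPM were also divided by the length of the longest GENCODE transcript. Over the members with such a length, complex IV took 28.6% of the sum, complex I 27.4%, complex V 26.7% and complex III 16.3%. *Atp5o* (mean 714 CPM) and *Atp5sl* (28.5 CPM) of complex V had no length and are missing from that sum. The share of complex V is therefore too low, and complexes I, IV and V were not ranked by it. Across the detected members with a length, the CPM and the CPM per kilobase correlated at a Spearman rho of 0.874, a value over genes, which are not replicates.

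**Figure D1:**
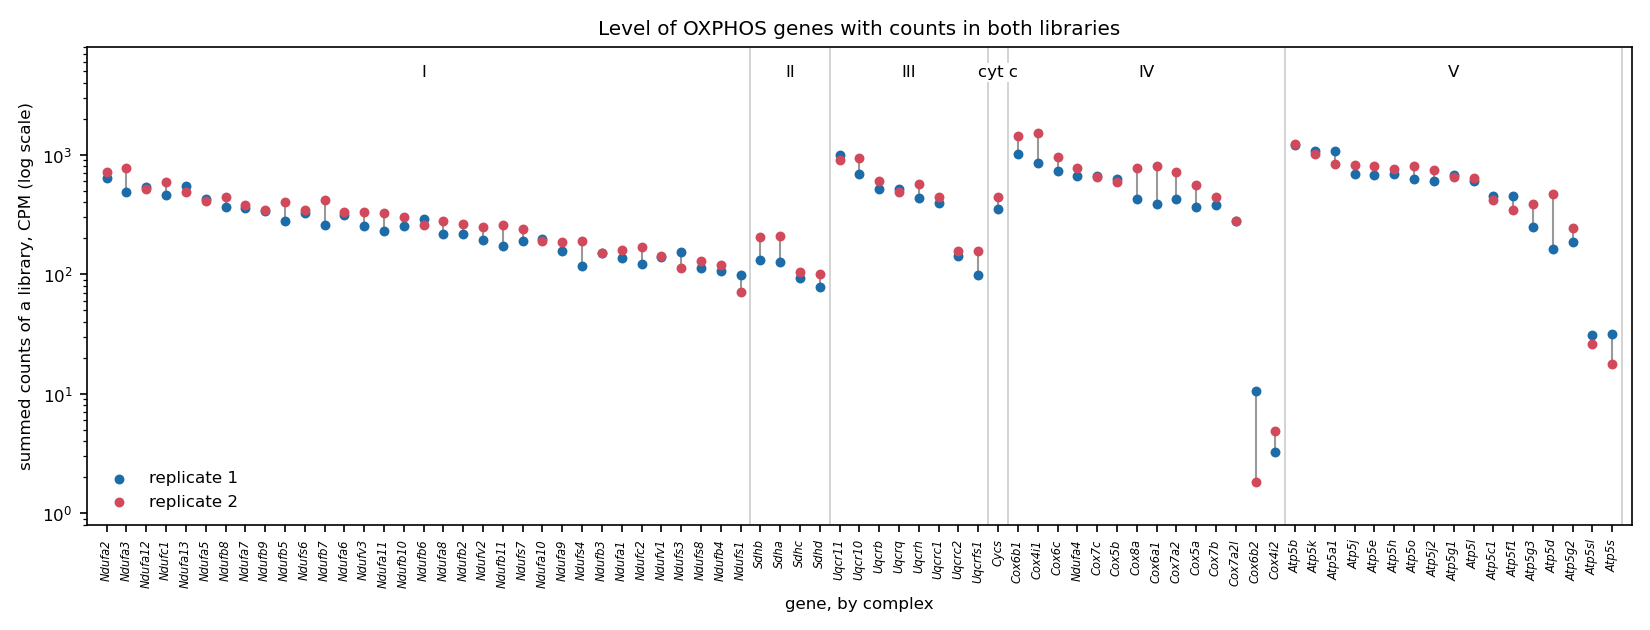
Level of OXPHOS genes with counts in both libraries, in CPM of the summed counts of a library on a log axis, grouped by complex and sorted by mean level. Each gene drawn has 1 point per library, blue for replicate 1 and red for replicate 2, and the grey line joins them. The last genes of complexes IV and V lie lowest, and *Atp5d* and *Cox6a1* show wide gaps between the libraries.

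Within complex I, the accessory subunits *Ndufa2*, *Ndufa3* and *Ndufa12* had the highest mean CPM of the libraries, and in replicate 1 *Ndufa13* (545 CPM) lay above the last 2. *Ndufa2* was at 645 and 714 CPM, and *Ndufa3* at 489 and 783 CPM. *Ndufa12* lay at 542 and 518 CPM. *Ndufs1*, which carries iron-sulfur clusters of the electron path and is the largest subunit of the complex, was the lowest detected member of complex I at 97.8 and 71.3 CPM, followed by *Ndufb4* at 106 and 119 CPM. *Ndufv1*, a core subunit that binds NADH, had 140.5 and 142 CPM. The core subunits *Ndufv2* (222 ± 37 CPM, SD, n = 2), *Ndufs7* (216 ± 36 CPM), *Ndufs3* (133 ± 28 CPM) and *Ndufs8* (121 ± 11 CPM) lay below the most abundant accessory subunits in both libraries. From the highest to the lowest detected gene, mean CPM in complex I spanned 8.03-fold.

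Complex II is succinate dehydrogenase and also works in the citric acid cycle. *Sdhb*, its iron-sulfur subunit, had 131 and 206 CPM, and *Sdha*, the flavoprotein, had 127 and 209 CPM. The membrane anchors *Sdhc* and *Sdhd* were at 93.7 and 104 CPM and at 78.4 and 100.2 CPM. All 4 genes lay in a narrow range, with 1.89-fold between the highest and lowest mean.

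In complex III the small subunits led. *Uqcr11* (chromosome 10, 80402997 to 80406830 on GRCm38) was at 1006 and 907 CPM, *Uqcr10* at 698 and 945 CPM, and *Uqcrb* at 519 and 608 CPM. *Uqcrc2*, a core protein, had 141 and 157 CPM, and *Uqcrfs1*, the Rieske iron-sulfur protein that takes electrons from ubiquinol, had 98.4 and 156 CPM. *Cycs*, the somatic cytochrome c (chromosome 6, 50562563 to 50566538), had 354 and 446 CPM and was seen in 82 of 87 cells.

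Complex IV held the gene with the highest mean, *Cox6b1* (chromosome 7, 30616861 to 30626151), at 1011 and 1452 CPM (1232 ± 312, SD, n = 2). *Cox4i1* (chromosome 8, 120668222 to 120674207), a regulatory subunit, had 855 and 1525 CPM, and *Cox6c* 730.0 and 956 CPM. *Cox6b1* lay above *Cox4i1* in replicate 1 and below it in replicate 2, so that their order is within the spread. In the ATP synthase, *Atp5b* (chromosome 10, 128083273 to 128090391) and *Atp5a1*, the beta and alpha subunits of the catalytic head, were at 1211 and 1239 CPM and at 1074 and 835 CPM. *Atp5k*, a small membrane subunit, lay at 1085 and 1025 CPM. *Atp5sl* and *Atp5s* were the lowest of the group, at 31.1 and 26.0 CPM and at 31.8 and 17.8 CPM. Counts of 8 members were found in every one of the 87 cells, among them *Atp5b*, *Atp5a1*, *Cox6b1*, *Cox6c* and *Uqcr11*. In all, 46 members had a count in at least 80 cells, and 5 of the detected members had one in fewer than 50% of the cells (*Atp5s*, *Atp5sl*, *Cox6b2*, *Cox4i2* and *Cox7a1*).

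Several subunits exist as isoforms, one ubiquitous and others known from heart, skeletal muscle, testis or lung. The ubiquitous form took nearly all counts of such pairs. *Cox4i1* had 7640 and 19381 counts in replicates 1 and 2, and *Cox4i2*, the isoform known from lung and low oxygen, had 29 and 62 (0.378% and 0.319% of the pair). *Cox4i2* counts came from 4 cells, and 3 of them held 98.9%. *Cox6b2*, known from testis, had 94 and 23 counts against 9034 and 18455 of *Cox6b1* (1.03% and 0.124% of the pair), and 3 of the 15 cells with a count held 88.9% of them. *Cox7a1*, the muscle form, had 3 counts, all in replicate 2, whereas *Cox7a2* had 3818 and 9048. *Cox6a2*, *Cox7b2*, *Cox8b*, *Cox8c* and *Ndufa4l2* had no count in either library, while their partners *Cox6a1*, *Cox7b*, *Cox8a* and *Ndufa4* had at least 3375 in each library. A count of 0 allows up to 3 counts, or 0.336 CPM in replicate 1 and 0.236 CPM in replicate 2, by counting error alone.

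*Atp5g1*, *Atp5g2* and *Atp5g3* encode the same mature c subunit of the rotor ring behind different import sequences. *Atp5g1* held 60.8% of their counts in replicate 1 and 50.9% in replicate 2, *Atp5g3* 22.5% and 30.2%, and *Atp5g2* 16.8% and 18.9%. The order was the same in both libraries. Cell by cell, *Atp5g1* had the most counts of the 3 in 49 cells, *Atp5g3* in 25 and *Atp5g2* in 12. In the Cox7a family, *Cox7a2* had the most counts in 62 cells and *Cox7a2l*, not a regular subunit of complex IV, in 25.

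*Ndufs5*, a complex I subunit (chromosome 4, 123712710 to 123718202), was the sixth member without counts, and the only one of the 35 complex I genes. *BC002163*, annotated as a processed pseudogene on chromosome 16 (42955631 to 42955949), matched the last 400 bases of an *Ndufs5* transcript over 286 bases at 99.3% identity. This pseudogene had 72 counts in 20 cells of replicate 1 and 143 counts in 35 cells of replicate 2. Only uniquely mapped reads had been counted, so the level of *Ndufs5* is uncertain in these tables, and whether its reads were assigned to the pseudogene was not tested. In the same search, copies at 95% identity or more over at least 80% of that stretch were found for 5 members (*Atp5g2*, *Atp5h*, *Atp5l*, *Ndufa11* and *Ndufs3*), none of whose copies had a row. The median of the 5 members was 279 CPM, against 330 CPM for the 78 members with no such copy. The 5 members all had counts, whereas the 78 include the 6 members without counts, *Ndufs5* among them, so the sets are unlike. Levels of the 5 genes with a copy may miss reads shared with it.

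Between the libraries, 55 of the 76 members with at least 100 counts in each had a higher CPM in replicate 2, where 48.1% of 7668 genes with that many counts did. The median ratio of replicate 2 to replicate 1 was 1.18 for the members and 0.978 for those genes. Both libraries are of 1 condition, and this measure of the spread between them has no test. *Atp5d*, the delta subunit of the synthase, differed the most among members with 100 counts, at 163 and 473 CPM (ratio 2.89), and *Cox6a1* followed at 386 and 808 CPM (2.09). *Ndufs1* (0.729) and *Ndufs3* (0.738) had the lowest ratios in complex I. Complex IV had a ratio of 1.40 and complex II of 1.44, whereas complexes I, III and V lay between 1.08 and 1.15.

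Among single cells, the summed share of OXPHOS genes ranged from 1.62% to 4.10% in replicate 1, with a median of 2.67%, and from 1.56% to 5.68% in replicate 2, with a median of 3.49%. The highest cell exceeded the lowest by 2.54-fold and 3.70-fold. The SD over cells was 0.655 percentage points in replicate 1 and 0.977 in replicate 2, where the counts alone would give 0.0586 and 0.0416. The spread over cells was thus wider than counting error in both libraries. Single members varied far more. Over the 74 members detected in at least 50% of the cells of each library, the median coefficient of variation was 107% in replicate 1 and 76.1% in replicate 2, below the 172% and 118% of all 3661 genes detected that often. *Atp5b* was among the steadiest genes, with a mean coefficient of variation over the libraries below that of every other member, and *Ndufv1* was the most variable.

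Members varied together from cell to cell, but weakly, and a weak correlation in sparse counts is no finding. The median Spearman rho over the 2701 pairs of these 74 genes was 0.115 in replicate 1 and 0.165 in replicate 2 (0.140 ± 0.036, SD, n = 2), while all pairs of the 3661 genes had medians of 0.0774 and 0.0285. Of the pairs, 1700 had a positive rho in both libraries, and none exceeded 0.5 in both. The pair with the highest value in its lower library was *Atp5o* with *Cox6a1* (0.487 and 0.580), followed by *Ndufb4* with *Ndufs3* (0.483 and 0.452) and *Cox5a* with *Cox5b* (0.499 and 0.439). These coefficients run over 43 and 44 cells and share the depth of each cell. With depth held constant by partial correlation the median of the members was 0.0604 in replicate 1 and 0.143 in replicate 2 (mean 0.102), and that of all genes 0.0229 and 0.0197. If the 74 genes had varied independently, their own variances would have given the sum a coefficient of variation of 12.6% in replicate 1 and 8.33% in replicate 2, while 23.7% and 28.8% were measured. No such value was computed for another set of genes or with depth held constant, so the excess is not shown to be particular to OXPHOS. Pairs of a member with a mitochondrial ribosome gene had median rhos of 0.116 and 0.122, beside 0.115 and 0.165 among members.

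Complex IV had the highest Spearman medians of the complexes on unthinned counts, at 0.192 and 0.289 in replicates 1 and 2. This order did not hold for Pearson's r, where complex IV had 0.166 and 0.212, below complex III (0.208) and complex II (0.198) in replicate 1 and complex V (0.221) in replicate 2. In replicate 1 it also lay below complex III in thinned cells (0.138 against 0.169) and below complex II with depth held constant (0.143 against 0.145). Complex I had 0.103 and 0.149, complex III 0.134 and 0.146, and complex II 0.177 and 0.115. Complex V differed most between libraries, at 0.0489 and 0.203. Pairs across complexes had medians of 0.168 and 0.214 for complex III with complex IV, and of 0.0980 and 0.0817 for complex I with complex II. Ranked by its median rho with the other members, averaged over the libraries, *Cox5b* (0.225 and 0.254) came first, then *Cycs* (0.203 and 0.274) and *Cox5a* (0.186 and 0.290). *Atp5g3* came last (-0.00310 and 0.0258). Beside these, pairs of mitochondrial ribosome genes had medians of 0.142 and 0.127 and pairs of proteasome genes of 0.113 and 0.123. Those of glycolytic genes were 0.110 and 0.168 and those of ribosomal protein genes 0.104 and 0.294, and the difference between such sets was not tested.

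**Figure D2:**
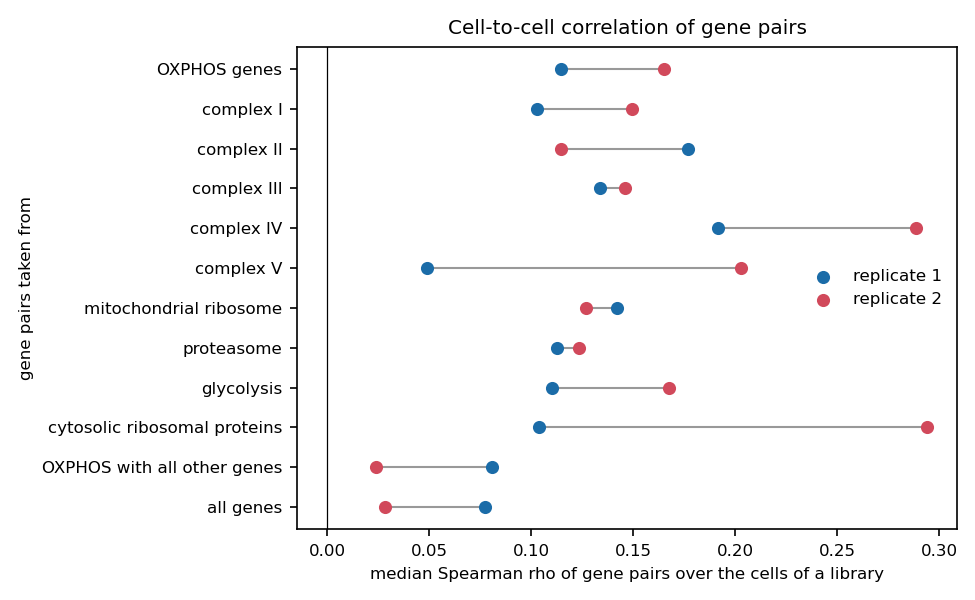
Median Spearman rho of gene pairs over the cells of each library (43 cells of replicate 1 in blue, 44 of replicate 2 in red), for genes detected in at least 50% of the cells of both libraries. Complex IV lies highest among the complexes in both libraries, and pairs of all genes lie at 0.0774 and 0.0285.

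The summed shares of complexes I and IV followed each other over cells, with a rho of 0.551 in replicate 1 and 0.785 in replicate 2, and those of complexes IV and V at 0.507 and 0.799. Complex II had 0.420 and 0.211 against complex I, 0.0969 and 0.177 against complex III, 0.159 and 0.441 against complex IV, and 0.0911 and 0.380 against complex V. The OXPHOS share ran with that of the mitochondrial ribosome at a rho of 0.342 and 0.839, and with glycolytic genes at 0.180 and 0.689. It also ran with the total counts of a cell, at 0.391 and 0.356. These values are descriptions over the cells of 1 library, which share its preparation, and carry no test.

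The cells were then ordered by *Runx1* and by *Gja5*. *Runx1* encodes the transcription factor needed for the endothelial-to-hematopoietic transition, and *Gja5*, a connexin of arterial endothelium, is one of the genes by which the study describes endothelial-biased cells. Over cells, the OXPHOS share had a rho of 0.156 with *Runx1* in replicate 1, which is weak in counts this sparse, and of 0.366 in replicate 2. *Runx1* itself had a rho of 0.342 and 0.349 with the total counts of a cell, and with cells thinned to 20000 counts its rho with the OXPHOS share was 0.0670 in replicate 1 and 0.429 in replicate 2. With *Gja5* the rho was -0.243 and -0.402. For a comparison over sums, the cells of each library were split at the median CPM of *Runx1*, and separately of *Gja5*, giving 21 high and 22 low cells in replicate 1 and 22 of each in replicate 2. Counts were added per library and group, so that each comparison rests on 4 sums, and both comparisons use the same cells. No OXPHOS gene entered the split. *Runx1* stood at 457 and 15.8 CPM in high and low cells of replicate 1 and at 226 and 2.94 CPM in those of replicate 2, and *Gja5* at 245 and 6.30 CPM and at 1196 and 55.0 CPM. The limit between the groups lay low in some libraries. High cells began at 52.7 and 11.2 CPM of *Runx1* (6 counts and 1 count in the lowest cell) and at 10.6 and 148 CPM of *Gja5* (1 and 44 counts), where low cells reached 52.2 and 8.85 CPM of *Runx1* and 10.01 and 146 CPM of *Gja5*. In such sums, fewer cells of a kind and less RNA per cell cannot be told apart.

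In *Runx1*-high cells, the OXPHOS share of summed counts was 3.13% in replicate 1 against 2.80% in *Runx1*-low cells, and 3.89% against 3.10% in replicate 2, a log2 ratio of 0.24 ± 0.12 (SD, n = 2). Single cells overlapped widely. In replicate 1, 12 of 21 *Runx1*-high cells lay above the median of the low cells, and in replicate 2 17 of 22 did. Of the 78 members tested, 60 had a log2 change above 0, and 18 one below 0, where 49.7% and 50.3% of 10629 genes did, and the median change was 0.26 for the members and -0.0066 for all genes. In both libraries 45 members were higher in *Runx1*-high cells and 7 were lower, where 28.8% and 26.5% of all genes were. No member passed edgeR's quasi-likelihood test after Benjamini-Hochberg adjustment (0% of all genes were called higher and 0.00941%, or 1 gene, lower). None had an unadjusted p under 0.05 in edgeR, where 5.53% of all genes did, and DESeq2 called none. With the library as a block, edgeR again called none, where it called 0.376% of all genes higher and 1.19% lower, and 11 members had an unadjusted p under 0.05 on the higher side and 0 on the lower, where 3.82% and 4.85% of all genes did.

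**Figure D3:**
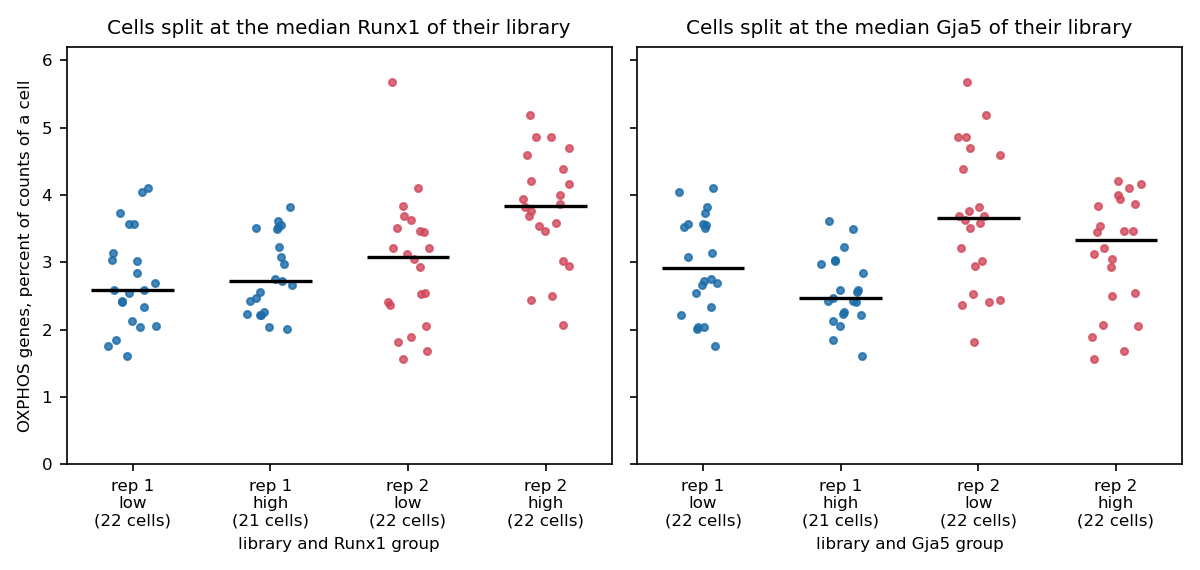
Share of OXPHOS genes in the counts of each cell, in percent, for cells split at the median *Runx1* (left) or *Gja5* (right) of their library. Points are cells (blue, replicate 1; red, replicate 2) and black bars are group medians. Groups overlap in every panel, with medians of 2.59% and 2.72% for *Runx1*-low and *Runx1*-high cells of replicate 1 and 3.09% and 3.84% for those of replicate 2.

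The members with the lowest p among those with a change above 0 came from complexes I and IV and cytochrome c. *Ndufc2*, an accessory subunit of complex I (chromosome 7, 97400003 to 97407802), had 152 CPM in *Runx1*-high and 68.6 CPM in *Runx1*-low cells of replicate 1, and 207 and 104 CPM in replicate 2, on TMM-scaled sums. Both of its high sums were above both low sums, with a log2 change of 1.05 ± 0.50 (SE) and an edgeR adjusted p of 0.898 (0.459 with the block). When cells were split within the deeper and the shallower cells of a library, a depth split, its change was 0.18. *Cycs* had 419 against 245 CPM and 535 against 301 CPM in the same order, a log2 change of 0.81 ± 0.39 with an edgeR adjusted p of 0.902 (0.41 in the depth split). *Ndufa5*, a subunit of the peripheral arm, had 534 against 251 CPM and 460.1 against 325 CPM (0.79 ± 0.38, and 0.68 in the depth split). *Ndufs7*, the core subunit with the last iron-sulfur cluster of complex I, had 249 against 87.6 CPM and 276 against 183 CPM (0.95 ± 0.49), and its change was -0.055 in the depth split. *Cox5a*, a nuclear subunit on the matrix side of complex IV, had 433 against 263 CPM and 668 against 376 CPM (0.78 ± 0.41, and 0.27 in the depth split). Each of these 5 genes was higher in both libraries (28.8% of all genes were), and none passed the test after adjustment. They were picked by lowest p from these same sums, which favours such agreement, so it is no separate support.

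Among changes below 0, *Ndufa8*, an accessory subunit of complex I, had the lowest p, with 178 CPM in *Runx1*-high and 296 CPM in *Runx1*-low cells of replicate 1 and 239 against 335 CPM in replicate 2 (log2 change -0.60 ± 0.41, edgeR adjusted p 0.979, and -0.30 in the depth split). *Ndufb11*, in the membrane arm of complex I, had 129 against 265 CPM in replicate 1 and 254 against 260.1 CPM in replicate 2. *Ndufa9*, another accessory subunit, had 123 against 229 CPM and 185 against 183 CPM, so that its direction differed between libraries. *Atp5sl*, at 14.6 against 63.7 CPM and 29.6 against 19.8 CPM, and *Cox6b2*, at 1.56 against 27.9 CPM and 2.86 against 0.194 CPM, also went opposite ways in the libraries. *Cox4i2* had 5.03 against 0 CPM and 7.92 against 0.194 CPM, from 4 cells.

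By role, all 13 core subunits listed (7 of complex I, *Sdha*, *Sdhb*, *Uqcrfs1*, *Cyc1*, *Atp5a1* and *Atp5b*, of which *Cyc1* is outside the symbol rule) had a change above 0, with a median of 0.38, and 10 were higher in both libraries. Over all genes 49.7% had a change above 0 and 28.8% were higher in both libraries. None of the core subunits was called. Complex I had 23 of 34 genes higher in both libraries and complex V 10 of 17. In complex IV 7 of 14 were higher in both, and in complex III 2 of 8 (25%), below the share of all genes. *Cox4i1* was lower in both libraries, at 756 against 1076 CPM and 1504 against 1513 CPM, and *Cox6b1* had 983 against 1104 CPM and 1488 against 1357 CPM.

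Other quantities moved with the *Runx1* groups. *Runx1*-high cells had more counts, with medians of 260240 against 95376 in replicate 1 and 271734 against 213444 in replicate 2. Split within the deeper and shallower cells of each library, the median change of the members was 0.095, and 53 of 78 were above 0. All 6 mesenchymal markers and all 7 endothelial markers were lower in *Runx1*-high cells of both libraries. Mesenchymal markers summed to 0.00530% against 0.226% of counts in replicate 1 and 0.00233% against 0.0794% in replicate 2, and without the 3 mesenchymal cells the median change of the members was 0.24. These sums rest largely on where those cells fell. Both of replicate 1 were *Runx1*-low, with 2.21% and 1.53% of their own counts in these genes. Ribosomal protein genes had 58 of 81 tested genes higher in both libraries, glycolytic genes 13 of 17 and mitochondrial ribosome genes 42 of 77, where 28.8% of all genes were. Stress and RNA quality genes summed to 1.51% against 1.75% and 1.24% against 1.92%. Most of these counts were of *Malat1*, at 9343 against 12354 CPM and 7384 against 13595 CPM. Of the 11 genes 1 was higher and 2 were lower in both libraries, and 8 were mixed. *Fos* had 754 against 471 CPM in replicate 1 and 368 against 787 CPM in replicate 2, and *Ier2* 781 against 217 CPM and 388 against 462 CPM. The part of depth, ribosomal and other lists in the OXPHOS values was not tested.

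**Figure D4:**
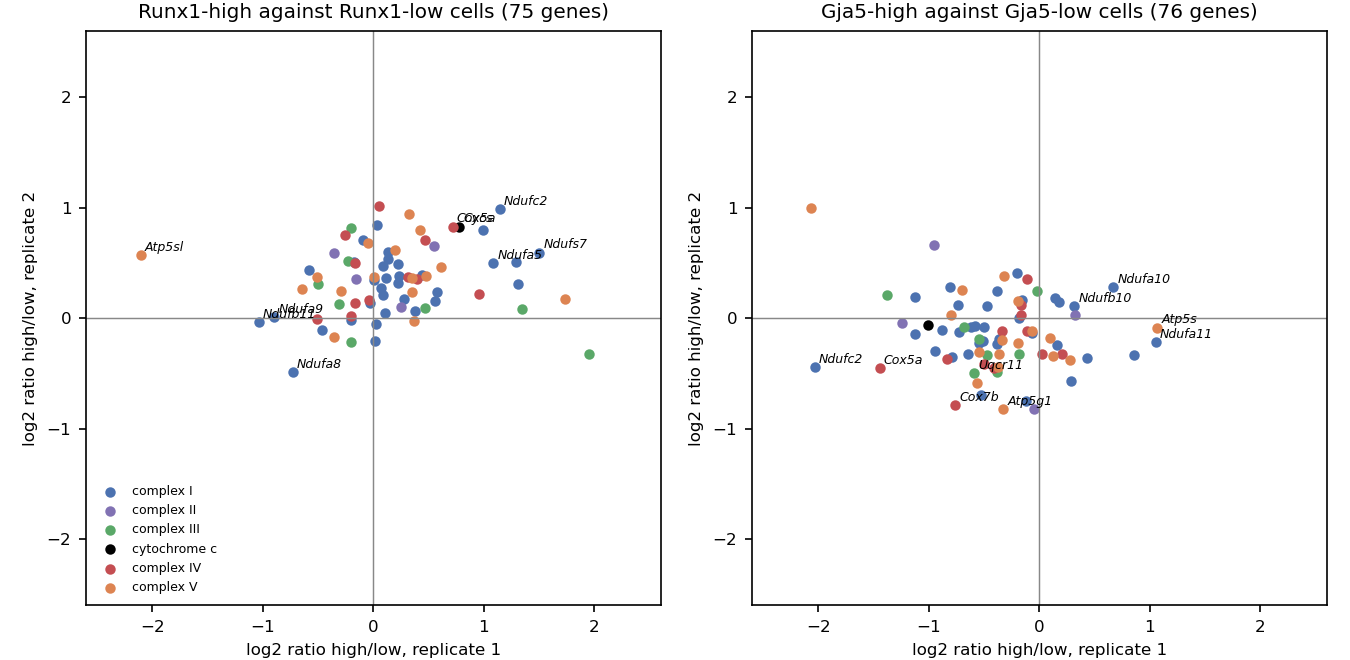
Log2 ratio of each OXPHOS gene in high against low cells, replicate 1 on the horizontal and replicate 2 on the vertical axis, for *Runx1* (left, 75 genes) and *Gja5* (right, 76 genes), coloured by complex. *Cox4i2*, *Cox6b2* and, on the left, *Atp5s* lie beyond 2.5 and are not drawn. Of the tested members 45 are higher in both libraries on the left and 43 lower in both on the right, and the named genes are those with the lowest p in each direction.

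In *Gja5*-high cells, the OXPHOS share of summed counts was 2.69% in replicate 1 against 3.34% in *Gja5*-low cells, and 3.35% against 3.79% in replicate 2, a log2 ratio of -0.24 ± 0.09 (SD, n = 2). In replicate 1, 16 of 22 *Gja5*-low cells lay above the median of the high cells, and in replicate 2 14 of 22 did. Of the 78 members tested 62 had a change below 0 and 16 one above 0, where 50.1% and 49.9% of 10653 genes did, with a median of -0.28 for the members and -0.0029 for all genes. In both libraries 43 members were lower in *Gja5*-high cells and 5 were higher, where 27.2% and 26.9% of all genes were. No member was called by edgeR without a block (0% of all genes were called in either direction). In that fit 1 member had an unadjusted p under 0.05, where 4.06% of all genes did, and no member passed DESeq2. With the library block edgeR called no member either, where 0.798% of all genes were called higher and 0.0845% lower, and 11 members had an unadjusted p under 0.05 on the lower side and 0 on the higher, where 3.33% and 4.38% of all genes did.

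*Cox7b* (chromosome X, 106015700 to 106022450), a small subunit of complex IV, was the member with the lowest p. It had 287 CPM in *Gja5*-high and 487 CPM in *Gja5*-low cells of replicate 1, and 319 against 552 CPM in replicate 2. The change was -0.78 ± 0.33 (log2, SE), with an unadjusted edgeR p of 0.0474, an adjusted p of 1.00 and, with the block, an adjusted p of 0.203. In cells thinned to 20000 counts it was -0.38 ± 0.40. *Cox5a* (chromosome 9, 57521274 to 57532426) had 204 against 555 CPM and 463 against 635 CPM, a change of -0.83 ± 0.44 without the block. In the blocked edgeR fit its change was -0.95 ± 0.26, with an adjusted p of 0.0876. *Ndufc2* was at 48.9 against 202 CPM and 140 against 190 CPM (-1.05 ± 0.56). *Uqcr11* had 823 against 1236 CPM and 741 against 1044 CPM (-0.54 ± 0.29), and *Atp5g1* had 615 against 771 CPM and 462 against 820 CPM (-0.56 ± 0.32). Each of these 5 genes was lower in the *Gja5*-high sum of both libraries, and none passed the test after adjustment. They too were picked by lowest p from these same sums, so their agreement between the libraries is no separate support. In thinned cells the changes of *Ndufc2* and *Uqcr11* were -0.40 and -0.21, and those of *Cox5a* and *Atp5g1* -1.05 and -0.51.

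Among changes above 0, *Ndufa10*, an accessory subunit of complex I, had 245 CPM in *Gja5*-high and 154 CPM in *Gja5*-low cells of replicate 1 and 207 against 171 CPM in replicate 2 (0.48 ± 0.38). *Ndufb10* had 285 against 229 CPM and 307 against 286 CPM. *Ndufa11*, at 314 against 151 CPM and 299 against 348 CPM, *Atp5s*, at 43.8 against 20.7 CPM and 17.0 against 18.1 CPM, and *Cox6b2*, at 19.5 against 1.63 CPM and 0.318 against 3.19 CPM, went opposite ways in the libraries. Of the core subunits 10 of 13 had a change below 0, where 50.1% of all genes did, with a median of -0.32. *Sdha*, at 143 against 114 CPM and 209 against 204 CPM, was above 0 in both libraries.

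**Figure D5:**
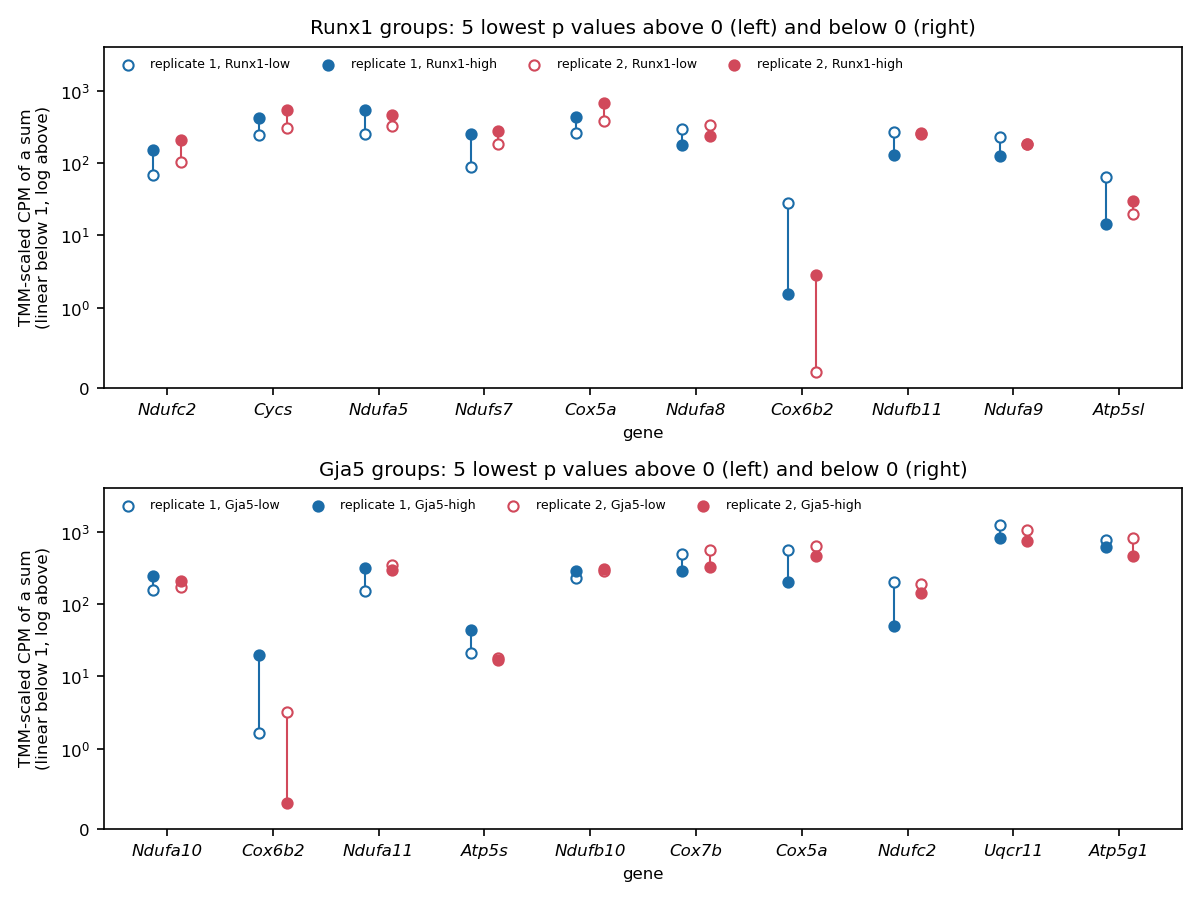
TMM-scaled CPM of the 4 sums for the members with the 5 lowest p values among changes above 0 and among changes below 0 in each comparison, on an axis that is linear below 1 and logarithmic above. Open points are low and filled points high cells, blue for replicate 1 and red for replicate 2. *Cox7b* lies at 487 and 287 CPM in *Gja5*-low and *Gja5*-high cells of replicate 1 and at 552 and 319 CPM in replicate 2, and *Cox6b2* goes opposite ways in the libraries.

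The median change of each of complexes I to V was below 0. Complex III had 6 of 8 genes lower in both libraries in *Gja5*-high cells, complex IV 8 of 14, complex I 18 of 34 and complex V 8 of 17, and no gene of complexes III, IV and V was higher in both. Over all genes 27.2% were lower and 26.9% higher in both. Median depth was 161402 against 140016 in replicate 1 and 230499 against 246822 in replicate 2 for *Gja5*-high and *Gja5*-low cells, so that depth went opposite ways in the libraries. Split within the deeper and shallower cells, the median change of the members was -0.26, with 11 of 78 above 0. In replicate 2 this split gave the same groups as the main split (6232126 and 6474234 counts). Only the groups of replicate 1 changed, so the depth split checks that library alone. All 6 mesenchymal markers were higher in the *Gja5*-high sums of both libraries, at 0.0971% against 0.0704% and 0.0656% against 0.00212% of counts, and without the mesenchymal cells the median was -0.28. These sums rest largely on where the few mesenchymal cells fell. In replicate 1 the *Gja5*-high one had 1.53% of its own counts in these genes and the *Gja5*-low one 2.21%. Of 7 endothelial markers 6 were higher in both libraries. Of 80 ribosomal protein genes tested 73 were lower in both, and *Rplp1*, named after its values were seen, was the only one called, with the block (edgeR adjusted p 0.0374). Their part in the OXPHOS values was not tested.

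Genes around the chain were read the same way. Of 47 assembly factors, the proteins that build the complexes, 45 were tested and none was called in the *Runx1* or the *Gja5* comparison, with or without a block. Their medians were 0.27 and -0.36. The 17 genes of the citric acid cycle had medians of 0.16 and -0.25, with none called. Among 77 genes of the mitochondrial ribosome, *Mrpl35*, named after its values were seen, was the only one called, higher in *Runx1*-high cells and only with the block (log2 change 1.63 ± 0.47, edgeR adjusted p 0.0372 with the block and 0.725 without). The 4 subunits outside the symbol rule (*Ndufab1*, *Cyc1* and *Usmg5*, with the synthase inhibitor *Atpif1* listed beside them) had changes above 0 for *Runx1* and below 0 for *Gja5*, and none was called. *Usmg5* was at 762 and 942 CPM and *Cyc1*, cytochrome c1 of complex III, at 147 and 234 CPM in replicates 1 and 2.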

How the data were processed

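The 2 libraries of PK44 cells hold UMI counts per gene and cell. The authors split reads by cell barcode, trimmed them, aligned them to the mm10 transcriptome with HISAT2 (2.1.0 in the submitters' processing notes), counted unique alignments with HTSeq and collapsed UMIs, and deposited the counts without normalization after a filter on genes and transcripts per cell. Reads shared with a near-identical copy can be lost in this way. Cells with very many reads or genes had been dropped by the authors as possible doublets, and no further caller was used here. The OXPHOS genes, gene lists and comparisons were chosen with earlier results of these data known.

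Every deposited cell was kept, and the replicate is the library. High and low sums were compared with edgeR 4.0.16 under R 4.3.3, by the quasi-likelihood test after filterByExpr and TMM scaling, with p-values adjusted by Benjamini-Hochberg over all genes tested and a threshold of 0.05. No block was used, as the study names none. *Runx1* or *Gja5* was left out of its own test. High and low sums of 1 library share that library, which pairs them: deviations from the group means correlated at 0.197 (*Runx1*) and 0.202 (*Gja5*). Alternatives were a library block, DESeq2 1.42.0, RLE size factors, no filter on low counts, splits by the outer parts of the range, within depth classes or by the mean of the study's 8 hematopoietic genes or of 8 arterial genes listed for this work, cells thinned to 20000 counts (86 of 87 cells), no mesenchymal cells and single libraries. Scripts were tested on simulated data. Counts of the 2 libraries differed beyond sampling noise, at 88.3 for chi-square divided by its degrees of freedom.

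Named genes were the 3 most and 2 least abundant detected genes of each complex, isoform pairs, core subunits, the 5 lowest p values in each direction and at most 4 genes of other lists by level. GENCODE M21 gave coordinates (GRCm38) for 83 of the 85 genes. Copies had been planned as a genome search and were searched with blastn 2.17.0 among annotated transcripts, using the last 400 bases. Values of some single genes are not reported here. Floors cover counting error only. Python 3.11.15 with pandas 2.3.3, numpy 2.4.6, scipy 1.17.1 and, for plots, matplotlib 3.10.9 was used.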

Additional observations from a re-analysis of the deposited data

How the results depend on the processing

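Each comparison rests on 4 sums from 2 libraries, so a missed threshold does not show that values were equal. No member was called under any alternative that was run, with the following exception. The replicate block and the split by the arterial score were used together, an alternative added after seeing the data. There the cells were grouped by the score in place of *Gja5*. It called 2 of 78 members lower in cells with a high score (*Ndufs7* and *Uqcrq*). Over all genes that fit called 56 of 10632 lower and 161 higher. Calls were not made in single libraries, which leave no residual degrees of freedom. The block alone changed no call of a member and moved the calls over all genes from 0 higher and 1 lower to 40 and 126 (*Runx1*), and from 0 to 85 higher and 9 lower (*Gja5*). DESeq2 called 28 genes higher and 100 lower, and 75 and 15, and without a filter on low counts edgeR called 10 and 57, and 46 and 4. For the outer parts of the *Gja5* range the median change of the members was -0.50, against -0.28. Single libraries gave medians of 0.11 to 0.36 for *Runx1* and -0.38 to -0.16 for *Gja5*. The median pair correlation was 0.102 with depth held constant (0.0604 in replicate 1 and 0.143 in replicate 2), and 0.115 to 0.165 in single libraries. The OXPHOS share was 3.01% to 3.57% in single libraries. Copies over at least 50% of the stretch, a limit added after seeing the data, were found for 16 members in place of 5. The cause of these shifts was not tested.

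Changes of named genes reversed sign as follows, on the log2 scale. Split within depth classes, *Ndufs7* (*Runx1*) had -0.055 and *Ndufb10* (*Gja5*) -0.12, and with the replicate block -0.017 and -0.14. Split by score, *Ndufb11* (*Runx1*) had 0.0017, *Cox6b2* (*Gja5*) -4.59, *Ndufa11* -0.056 and *Ndufb10* -0.47, and with the replicate block 0.00016, -5.10, -0.019 and -0.51. *Ndufb10* had -0.58 for the outer parts of the range and -0.060 after thinning. In single libraries the *Runx1* changes ran from -3.87 to 2.52 for *Cox6b2*, from -0.90 to 0.012 for *Ndufa9* and from -2.10 to 0.57 for *Atp5sl*, and the *Gja5* changes from -2.37 to 3.32 for *Cox6b2*, from -0.22 to 1.06 for *Ndufa11* and from -0.086 to 1.07 for *Atp5s*.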

Other observations

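Among 12 regulators of mitochondrial gene expression, *Epas1* had the highest level (232 and 299.5 CPM in replicates 1 and 2). This hypoxia-inducible factor is also one of the genes of the study's endothelial feature score. It was called only with the library block, lower in *Runx1*-high cells (log2 change -1.83 ± 0.43 (SE), edgeR adjusted p 0.000155 with the block and 0.675 without) and higher in *Gja5*-high cells (1.37 ± 0.39, edgeR adjusted p 0.0156 with the block and 1.00 without). Both changes of *Epas1* are those of the fit without the block. Of 11 regulators tested in the *Runx1* comparison 6 had a change above 0 and 5 one below 0, where 49.7% and 50.3% of all genes did. In the *Gja5* comparison 2 of 12 were above 0 and 10 below, where 49.9% and 50.1% of all genes were. The comparisons share cells, and each value is given for itself. *Ppargc1a*, the coactivator of mitochondrial biogenesis, named after its values were seen, had counts in 4 of 87 cells. Of 14 genes for expression of the mitochondrial genome with a row, 12 and 13 were tested in the *Runx1* and *Gja5* comparisons and none was called. *Ssbp1* led them at 96.3 and 84.3 CPM, and *Tfam*, which packs mitochondrial DNA, had 85.1 and 58.9 CPM.

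Among carriers and porins, the adenine nucleotide carrier *Slc25a5* had 665 and 1011 CPM, and the phosphate carrier *Slc25a3* had 724 and 627 CPM with a count in all 87 cells. None of the 8 genes of this list that were tested was called in either comparison, with or without the block.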
